A study of Mus musculus with 10 samples.

Results

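The change in RNA levels between 2 dose steps under dasatinib was compared, gene by gene, with the change between the same 2 steps under the solvent DMSO. The cells were a mouse B-lineage acute lymphoblastic leukaemia line driven by BCR-ABL1 in its p185 form, the fusion kinase of the Philadelphia chromosome, and RNA sequencing counts were available for 10 libraries. The comparison used the 8 libraries from derived lines, chosen by their labels. These were dasatinib lines grown out at 1x the IC90 (libraries A, B and C), dasatinib lines grown out at 16x the IC90 (A, B and C), and lines carried in DMSO to the 1x step and to the 16x step (1 library each). The other 2 libraries, from the parental line, entered the estimate of the spread. The IC90 is the concentration that inhibits by the named percentage, and all groups descend from the parental line. With a drug-free line at each step, the design addresses which step changes go with escalation of the drug and which also occur in drug-free culture.

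Dasatinib inhibits ABL and SRC family kinases, and so the signals that BCR-ABL1 sends through STAT5, RAS and PI3K. In pre-B leukaemia these signals stand in for those of the interleukin-7 receptor and the pre-B receptor, which drive growth and restrain differentiation. Lines carried to a later dose step have usually been cultured for longer, so a change between steps can accompany either the dose or the time in culture.

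Total counts were 29049760 to 45813092 per library, and 12993 of 29955 listed genes were tested. Levels are given as CPM, a gene's counts scaled to 1000000 counts per library after TMM scaling, and changes on the log2 scale ± SE. The dasatinib step is 16x minus 1x under drug, the vehicle step is DMSO 16x minus DMSO 1x, and the step difference is the first minus the second. A gene was called at an adjusted p under 0.05 in the quasi-likelihood test of edgeR, and "rose" and "fell" are used only of called steps. Each DMSO step is 1 library, so its spread was taken from the dasatinib and parental replicates, at a biological coefficient of variation of 7.29%. The labels call the dasatinib libraries A, B and C biological replicates and the parental pair replicates, without naming separate cultures. The p-values measure the spread between these samples.

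The pre-B markers Cd79a, Cd79b, Pax5, Vpreb1, Igll1 and Blnk were abundant in all 10 libraries, the lowest of them, Pax5, at 105 to 153 CPM. Ebf1, another B-lineage factor, was nearly absent, at 0.0955 to 0.717 CPM. Dntt ranged over 1.74 to 131 CPM and Rag1 over 2.98 to 76.0 CPM. Among markers of other cell types, Cd3e, Cd3d, Cd3g, Cd4 and Cd8a of T cells, Mpo, Elane, S100a8 and S100a9 of granulocytes, and Col1a1, Col1a2 and Col3a1 of stroma stood at 0 to 0.0681 CPM. Other members of the same lists were present. Cd2 measured 105 to 243, Zap70 8.73 to 21.9 and Tcf7 7.68 to 18.7 CPM in the T cell list, Ctss 41.6 to 68.4 and Lyz2 3.08 to 7.8 CPM in the myeloid list, Vim 470 to 766 CPM in the stromal list, and Hbb-b1, a globin gene, 3.51 to 34.4 CPM in the erythroid list. In bulk RNA, fewer cells of a kind and less RNA per cell cannot be told apart.

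For 826 genes (6.36% of those tested) the step difference was called. It was higher, meaning more positive under drug than in vehicle, for 658 genes (5.06%) and lower for 168 (1.29%), and 202 genes (1.55%) differed by more than 2-fold. The step difference had an unadjusted p under 0.05 in 2369 of the 12993 tested genes. The dasatinib step alone was called for 1686 genes (13% of those tested), 901 rising (6.93%) and 785 falling (6.04%). The vehicle step was called for 1173 (9.03%), of which 293 rose (2.26%) and 880 fell (6.77%). Both steps were called for 375 genes, which were 22.2% of the dasatinib calls and 32.0% of the vehicle calls, and 325 of these moved the same way. For all 826 genes, each of the 9 pairings of a dasatinib 16x with a dasatinib 1x library gave a change on one side of the vehicle step; this held for 48.2% of all tested genes. When the parental and both DMSO libraries were instead treated as 1 drug-free class to estimate the spread, 22 genes were called, 18 of them among the 826. That fit counts the differences among these libraries, the vehicle step included, as spread. Leaving out 1 library moved the count of called step differences by over 1.5 times for dasatinib 1x C (541), parental A (543) and parental B (542), and that of dasatinib steps for dasatinib 1x A (955) and C (968).

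**Figure D1:**
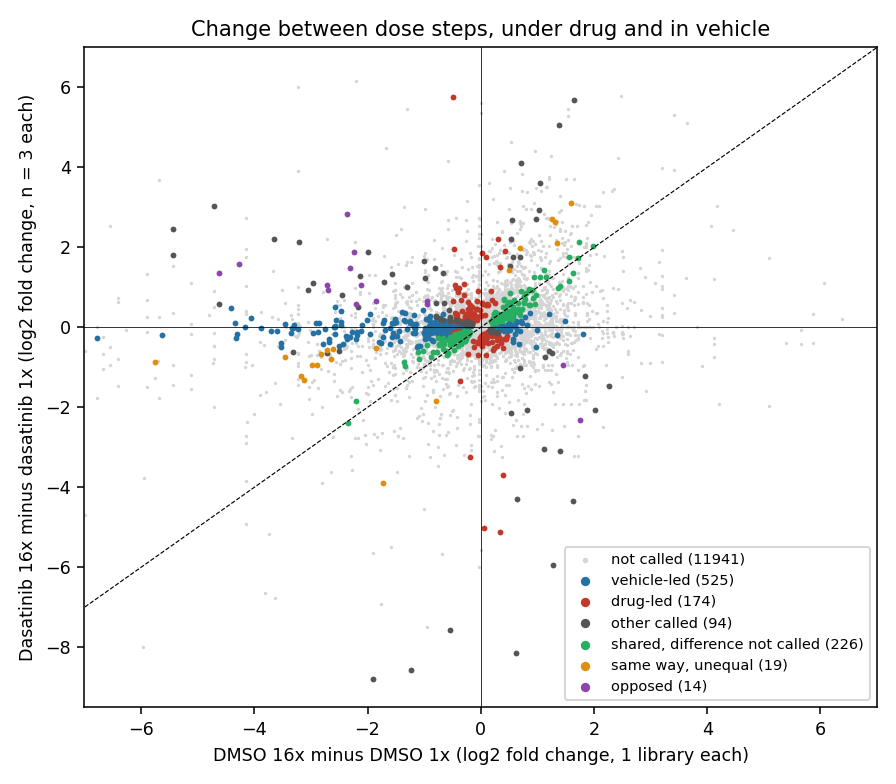
Dasatinib step (vertical, log2, 3 libraries against 3) against vehicle step (horizontal, log2, 1 library against 1), with 1 point per tested gene; the dashed line marks equal steps, 10 genes lie outside the axes, and colours give the classes with their gene counts. The 525 vehicle-led genes spread along the horizontal axis, mostly to the left, the 174 drug-led genes along the vertical axis, and the 226 shared genes along the dashed line.

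The called genes were sorted by which step moved. For 174, termed drug-led, the dasatinib step was called and the vehicle step was under 0.5 in size, with 100 step differences higher and 74 lower. For 525, termed vehicle-led, the vehicle step was called and the dasatinib step was under 0.5 in size; 466 of these fell in the vehicle step and 59 rose. In 14 further genes the steps were called in opposite directions, and in 19 others they were called the same way but to unequal extents. Another 94 met none of these descriptions. Over all tested genes both steps were called in opposite directions for 50, so the 14 are those left after the drug-led and vehicle-led classes were filled. The 81 genes that qualified for more than 1 class were put in the first. A drug-led gene can therefore have a called vehicle step, even the larger of the 2, as Ftl1 did (vehicle -0.44, dasatinib 0.25). A further 226 genes, termed shared, were called the same way in both steps with a step difference that was not called and was under 0.5 in size; 106 rose and 120 fell. A step that misses its call is not shown to be absent, so the classes describe calls. The drug-led class held 90, 83, 98 and 98 genes without dasatinib 1x A, dasatinib 1x C, parental A and parental B, and 292 and 384 without dasatinib 16x A and B, and the shared class held 360 without dasatinib 16x A. With the drug-free class as the source of the spread, 12 genes were drug-led and 0 vehicle-led or shared. Because that class counts the vehicle step itself as spread, the 0 does not show vehicle steps to be absent. In that fit, a likelihood ratio test of edgeR, 0 vehicle steps were called. Of the 12993 tested genes 345 had an unadjusted p under 0.05 in the vehicle step, a share below 0.05. DESeq2 with the 5 groups called 1119 vehicle steps.

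Among the drug-led genes with a mean of at least 5 CPM in some step group, Cuedc1 had the highest step difference of those named. It measured 3.93, 5.01 and 3.94 CPM across dasatinib 1x A, B and C, then 14.1, 21.7 and 14.6 CPM in dasatinib 16x. Cuedc1 in vehicle measured 3.39 CPM in DMSO 1x and 2.44 CPM in DMSO 16x (step difference 2.44 ± 0.38, adjusted p = 0.00448). The 3 dasatinib 16x libraries lay above all others, and the dasatinib 1x, DMSO and parental libraries (3.17 and 2.82 CPM) were all at 5.01 CPM or below. With limma-voom its call was lost (adjusted p = 0.119). Tyro3, a receptor tyrosine kinase of the TAM family that binds GAS6 and protein S, measured 6.24, 5.94 and 5.27 CPM across dasatinib 1x A, B and C, then 11.8, 11.8 and 10.8 CPM in dasatinib 16x. Tyro3 in vehicle measured 6.73 CPM in DMSO 1x and 4.98 CPM in DMSO 16x (step difference 1.42 ± 0.20, adjusted p = 0.00149). Its dasatinib 16x libraries again did not overlap with any other library. Gda, which encodes guanine deaminase of purine breakdown, rose from 2.03, 1.33 and 1.87 to 6.29, 6.24 and 6.49 CPM under drug, while vehicle stayed at 1.78 and 1.79 CPM (step difference 1.85 ± 0.43, adjusted p = 0.0222).

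Plxnc1, a semaphorin receptor, rose in the dasatinib step with a step difference of 1.47 ± 0.38, and its call was lost without dasatinib 1x A or C, or parental A or B (adjusted p up to 0.101). With the parental libraries instead of DMSO 1x as the start of the vehicle step (the parental start), it had 0.87 and was not called (adjusted p = 0.111). Ckb, brain-type creatine kinase, had 1.39 ± 0.34 and lost its call without dasatinib 1x A, B or C, or dasatinib 16x C, or parental A or B (adjusted p up to 0.1005); from the parental start it had 0.43 (adjusted p = 0.416). Med12l, a subunit related to MED12 of Mediator, had 1.37 ± 0.32 and lost its call without dasatinib 1x A, B or C (adjusted p up to 0.0631). Cox6a2, a cytochrome c oxidase subunit best known from muscle, had 1.28 ± 0.35 and lost its call without dasatinib 1x A, B or C, or dasatinib 16x B, or parental A or B (adjusted p up to 0.0856). These 4 genes stood at 1.39 to 10.2 CPM in dasatinib 1x.

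Among the drug-led falls, Celsr1, a cadherin of planar cell polarity, had the lowest step difference of those named. It measured 2.41, 1.71 and 2.4 CPM across dasatinib 1x A, B and C, then 0.242, 0.343 and 0.0955 CPM in dasatinib 16x. Celsr1 in vehicle measured 8.61 CPM in DMSO 1x and 7.58 CPM in DMSO 16x, while parental A and B stood at 15.6 and 14.9 CPM (step difference -3.06 ± 0.45, adjusted p = 0.00238). All dasatinib libraries, those at 1x included, lay below both DMSO libraries. Cep290, of the ciliary transition zone, had a step difference of -0.92 ± 0.20, but its call was lost without dasatinib 1x A or C (adjusted p up to 0.0634). Arhgef12, a guanine nucleotide exchange factor, measured 22.5, 19.9 and 20.9 CPM across dasatinib 1x A, B and C, then 17.3, 16.01 and 14.7 CPM in dasatinib 16x. Arhgef12 in vehicle measured 28.5 CPM in DMSO 1x and 36.6 CPM in DMSO 16x (step difference -0.76 ± 0.14, adjusted p = 0.0076). Pcmtd1 measured 73.9, 66.9 and 78.1 CPM across dasatinib 1x A, B and C, then 53.2, 50.7 and 55.6 CPM in dasatinib 16x. Pcmtd1 in vehicle measured 109.5 CPM in DMSO 1x and 134 CPM in DMSO 16x (step difference -0.75 ± 0.11, adjusted p = 0.00202). For both, the dasatinib step fell and the vehicle value stood higher at 16x than at 1x, without that vehicle rise being called. Furin, a proprotein convertase (-0.72 ± 0.16), and Fhl3, a LIM-domain protein (-0.69 ± 0.13), had dasatinib steps of only -0.28 and -0.22; most of their step difference lay in the vehicle step (0.44 and 0.47). Car13, a carbonic anhydrase, had -0.76 ± 0.18, and its call was lost without dasatinib 1x A or C, or dasatinib 16x B, or parental A or B (adjusted p up to 0.0782).

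Some genes with larger falls under drug were chosen for description after their values were seen. Tfpi, tissue factor pathway inhibitor, measured 3.26, 1.53 and 4.62 CPM across dasatinib 1x A, B and C, then 0, 0 and 0.0239 CPM in dasatinib 16x. Tfpi in vehicle measured 17.4 CPM in DMSO 1x and 26.8 CPM in DMSO 16x (step difference adjusted p = 0.0131). Over the 3 dasatinib 1x libraries it had 347 counts and over the 3 dasatinib 16x libraries 1 count, a ratio of 401 (95% counting interval 71.5 to 15884). Without dasatinib 16x C, which held that count, the adjusted p was 0.0886. Aes, a Groucho-family corepressor, had 1701 counts in dasatinib 1x and 4 in dasatinib 16x, a ratio of 491 (192 to 1806). In vehicle it stood at 14.6 and then 3.88 CPM, a step that was not called by edgeR (adjusted p = 0.0599), while its step difference was (adjusted p = 0.00621). The call of Aes was lost with limma-voom (adjusted p = 0.115). These intervals cover counting error only. Btbd3 measured 0.665, 0.302 and 0.202 CPM across dasatinib 1x A, B and C, then 0, 0 and 0.0239 CPM in dasatinib 16x. Btbd3 in vehicle measured 2.95 CPM in DMSO 1x and 3.75 CPM in DMSO 16x (step difference adjusted p = 0.00763). Zfp11, a zinc finger gene on chromosome 5, measured 1.46, 1.03 and 1.62 CPM across dasatinib 1x A, B and C, then 0.11, 0 and 0 CPM in dasatinib 16x. Zfp11 in vehicle measured 3.83 CPM in DMSO 1x and 3.99 CPM in DMSO 16x (step difference adjusted p = 0.00833). Both were drug-led, and all their dasatinib libraries lay below both DMSO and both parental libraries. The step differences of Tfpi, Aes, Btbd3 and Zfp11 were also called with the drug-free class as the source of the spread, at adjusted p = 9.15e-08, 0.0021, 0.00161 and 9.15e-08.

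Of the genes described here, 12 were called with both sources of the spread: Cuedc1, Tyro3, Socs1, Csf2rb2, Bok, Tfpi, Aes, Btbd3, Zfp11, Pld4, Acox3 and Ctsz. Pld4, an endolysosomal nuclease related to phospholipase D, measured 7.06, 9.13 and 7.39 CPM across dasatinib 1x A, B and C, then 21.9, 20.9 and 17.9 CPM in dasatinib 16x. Pld4 in vehicle measured 10.2 CPM in DMSO 1x and 6.48 CPM in DMSO 16x (step difference 2.02 ± 0.25, adjusted p = 0.000818). Acox3, a peroxisomal acyl-CoA oxidase, lies on chromosome 5 and measured 54.4, 56.3 and 52.4 CPM across dasatinib 1x A, B and C, then 77.5, 75.6 and 72.3 CPM in dasatinib 16x. Acox3 in vehicle measured 44.2 CPM in DMSO 1x and 37.8 CPM in DMSO 16x (step difference 0.69 ± 0.09, adjusted p = 0.000734). Ctsz, the lysosomal cathepsin Z, measured 74.1, 81.1 and 80.4 CPM across dasatinib 1x A, B and C, then 105, 109 and 121 CPM in dasatinib 16x. Ctsz in vehicle measured 81.9 CPM in DMSO 1x and 73.6 CPM in DMSO 16x (step difference 0.66 ± 0.11, adjusted p = 0.00381). In all 3 genes every dasatinib 16x library lay above every other library, parental included, and Pld4, Acox3 and Ctsz were chosen after their values were seen.

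The genes that STAT5 induces were followed because BCR-ABL1 signals through STAT5. The cytokine receptors were followed because these signals stand in for those of the interleukin-7 receptor. The counts of each list below stand beside those of all tested genes, of which 5.06% were higher and 1.29% lower. Of 12 tested STAT5-induced genes, 6 rose in the dasatinib step, and the step difference was higher for 1, Socs1, and lower for 1, Socs3 (list median 0.31, against 0.01 for all tested genes; 1 to 2 higher and 0 to 2 lower when 1 library was left out). Socs1, the JAK inhibitor of the cytokine feedback loop, measured 11.7, 13.1 and 12.6 CPM across dasatinib 1x A, B and C, then 24.1, 22.8 and 23.2 CPM in dasatinib 16x. Socs1 in vehicle measured 13.9 CPM in DMSO 1x and 13.5 CPM in DMSO 16x (step difference 0.95 ± 0.15, adjusted p = 0.00231). Its vehicle step was -0.04 ± 0.13, and the dasatinib 16x libraries lay above all others. Socs3, a related feedback inhibitor, measured 22.8 CPM in DMSO 1x and 39.01 CPM in DMSO 16x. The dasatinib libraries held 11.1, 11.6 and 12.8 CPM at 1x and 13.4, 14.5 and 14.3 CPM at 16x. Its vehicle step was the larger (0.78 against 0.25 under drug), and the call of the step difference (-0.53 ± 0.14) was lost without dasatinib 1x B or C, or parental A or B (adjusted p up to 0.0825). Cish, another STAT5 target, rose in the dasatinib step (0.67 ± 0.09), but its step difference of 0.52 ± 0.19 was not called (95% interval 0.08 to 0.96), although from the parental start it was (0.62, adjusted p = 0.0377).

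Among 20 tested cytokine receptors and JAK kinases, the step difference was higher for 2 and lower for 0 (10 higher and 1 lower at an unadjusted p under 0.05; DESeq2 called 4 higher and 0 lower; 1 to 6 higher and 0 to 1 lower when 1 library was left out). Csf2rb2, a beta chain of the interleukin-3 receptor in the mouse, measured 22.98, 24.3 and 20.1 CPM across dasatinib 1x A, B and C, then 36.2, 40.8 and 40.8 CPM in dasatinib 16x. Csf2rb2 in vehicle measured 20.1 CPM in DMSO 1x and 16.4 CPM in DMSO 16x (step difference 1.10 ± 0.15, adjusted p = 0.00119). Its dasatinib 16x libraries were above all others, but its close paralog Csf2rb shares sequence, so the division of reads between the pair is uncertain. Crlf2, the TSLP receptor chain, lies on chromosome 5 and measured 38.4 CPM in DMSO 1x and 20.7 CPM in DMSO 16x. Crlf2 under drug measured 56.8, 57.9 and 55.7 CPM at 1x and 58.5, 49.9 and 47.3 CPM at 16x. It fell in vehicle only by call, and its step difference (0.76 ± 0.15) lost the call without dasatinib 1x A or C (adjusted p up to 0.051). Il7r, the interleukin-7 receptor alpha chain, was among the shared falls and is described with them.

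**Figure D2:**
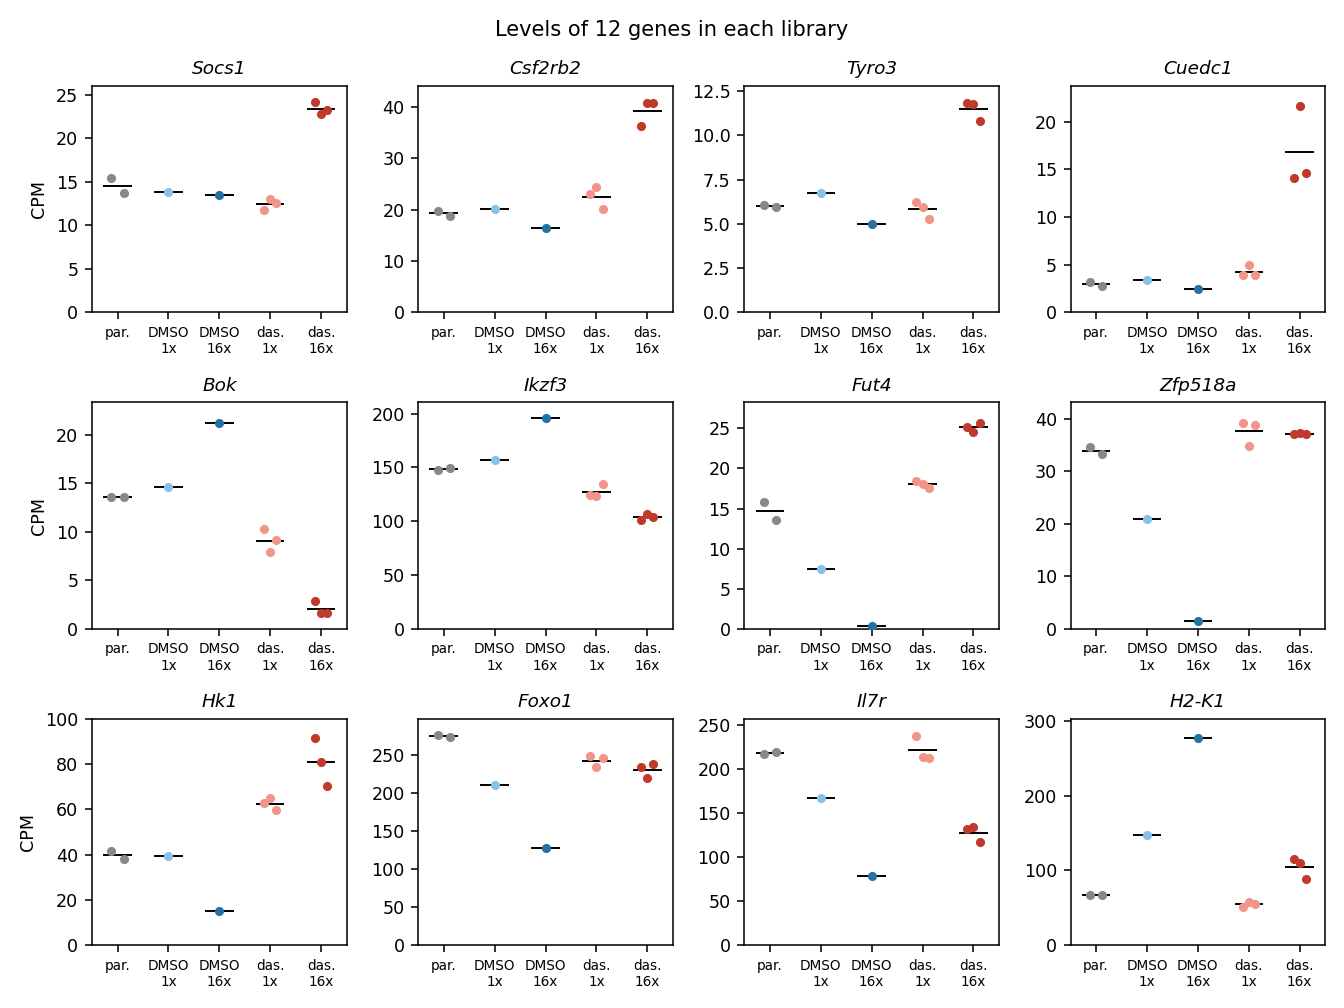
CPM (vertical, linear from 0) of 12 genes in the parental, DMSO and dasatinib libraries (horizontal, 1 point per library, bar at the group mean; 1 library per DMSO group). Socs1, Csf2rb2, Tyro3 and Cuedc1 stand highest in the 3 dasatinib 16x libraries, Fut4, Zfp518a, Hk1 and Foxo1 lowest in DMSO 16x, and Il7r and H2-K1 move the same way in both steps.

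Of 19 tested B-lineage transcription factors, 7 fell in the dasatinib step and 0 rose, while in the vehicle step 3 fell and 3 rose. The step difference was lower for 3, Ikzf3, Ikzf1 and Runx1, and higher for 1, Foxo1 (list median -0.13; 1 higher and 2 to 7 lower when 1 library was left out). Ikzf3, which encodes Aiolos, measured 124, 123 and 134 CPM across dasatinib 1x A, B and C, then 102, 107 and 104 CPM in dasatinib 16x. Ikzf3 in vehicle measured 157 CPM in DMSO 1x and 196 CPM in DMSO 16x (step difference -0.61 ± 0.07, adjusted p = 0.000581), and the steps were called in opposite directions. Ikzf1, which encodes Ikaros, rose in vehicle from 754 to 1042 CPM, against 529, 538 and 534 and then 485, 538 and 477 CPM under drug (step difference -0.56 ± 0.08, adjusted p = 0.0018). Runx1 fell under drug (-0.19), and the call of its step difference (-0.25 ± 0.06) was lost without dasatinib 1x A, or parental A or B (adjusted p up to 0.0733). Foxo1, a forkhead factor that drives Rag and Il7r transcription and is restrained by PI3K signalling, measured 210.4 CPM in DMSO 1x and 127 CPM in DMSO 16x. With dasatinib the levels were 248, 234 and 246 CPM at 1x and 234, 219.8 and 238 CPM at 16x (step difference 0.65 ± 0.07, adjusted p = 0.000347). Its DMSO 16x value lay below every other library, parental included (276 and 273 CPM).

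Of 19 tested FOXO-induced genes, the step difference was higher for 1, Sesn3, and lower for 0, near the shares of all tested genes (5.06% and 1.29%). At an unadjusted p under 0.05 the list held 4 higher and 1 lower. DESeq2 called 2 higher and 1 lower, and 1 to 4 were higher and 0 to 1 lower when 1 library was left out. Sesn3, a sestrin that restrains mTORC1, measured 19.9, 19.95 and 20.4 CPM across dasatinib 1x A, B and C, then 24.8, 25.7 and 24.5 CPM in dasatinib 16x. Sesn3 in vehicle measured 17.6 CPM in DMSO 1x and 13.1 CPM in DMSO 16x (step difference 0.74 ± 0.11, adjusted p = 0.00233), rising under drug and falling in vehicle. In the pre-B receptor list, 1 of 22 tested genes was higher and 2 were lower (0 to 2 higher and 0 to 3 lower when 1 library was left out). Pik3ap1, the B cell adaptor for PI3K, had -0.37 ± 0.09 and lost its call without dasatinib 1x C, or parental A or B (adjusted p up to 0.0586). Malt1, the paracaspase of NF-kB signalling, rose under drug (0.29), but the call of its step difference (0.29 ± 0.08) was lost without dasatinib 1x A, B or C, or dasatinib 16x C, or parental A or B (adjusted p up to 0.0775). Igll1, the lambda5 surrogate light chain, rose in vehicle (0.26) and had -0.32 ± 0.09, with the call lost without dasatinib 1x A or B, or parental A or B (adjusted p up to 0.108).

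Among 15 tested genes of the BCL2 family, which sets the threshold for mitochondrial cell death, 1 was higher and 2 were lower (1 to 2 higher and 1 to 2 lower when 1 library was left out). Bok, a pro-death member, measured 10.3, 7.9 and 9.14 CPM across dasatinib 1x A, B and C, then 2.86, 1.64 and 1.65 CPM in dasatinib 16x. Bok in vehicle measured 14.7 CPM in DMSO 1x and 21.3 CPM in DMSO 16x, while parental A and B stood at 13.6 and 13.6 CPM (step difference -2.68 ± 0.37, adjusted p = 0.00381). The dasatinib 16x libraries were lowest and DMSO 16x was highest, although the vehicle step itself (0.54 ± 0.31) was not called. Bcl2, the survival gene, measured 17.3 CPM in DMSO 1x and 9.4 CPM in DMSO 16x. Under drug it stood at 18.8, 19.9 and 18.3 CPM at 1x and 22.5, 19.6 and 19.4 CPM at 16x (step difference 0.98 ± 0.15, adjusted p = 0.00195), and DMSO 16x was the lowest of all 10 libraries. Pmaip1, which encodes the pro-death protein NOXA, lies on chromosome 18 and fell under drug to 9.67, 7.86 and 8.5 CPM from 15.04, 13.4 and 13.4 CPM. Its step difference was -0.78 ± 0.19, called with all libraries and lost without dasatinib 1x A, or parental A or B (adjusted p up to 0.0619).

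Of the genes of S phase, 25 of 39 tested members fell in the dasatinib step and 1, Pole2, rose. In the vehicle step 5 fell and 1 rose. For the step difference 7 were lower and 1 was higher, with a median of -0.11 against 0.01 for all tested genes (0 to 1 higher and 5 to 10 lower when 1 library was left out). Mcm6, of the replicative helicase, measured 566, 562 and 572 CPM across dasatinib 1x A, B and C, then 519.9, 516 and 522 CPM in dasatinib 16x. Mcm6 in vehicle measured 618 CPM in DMSO 1x and 679 CPM in DMSO 16x (step difference -0.26 ± 0.05, adjusted p = 0.00978). Mcm3 (-0.27 ± 0.05) and Mcm5 (-0.25 ± 0.06) of the same complex moved to a like extent. Uhrf1, which guides maintenance methylation of DNA, had -0.30 ± 0.06. For these 4 the dasatinib step fell and the vehicle step was not called. Cdt1 of origin licensing (-0.25 ± 0.06) lost its call without dasatinib 1x A, B or C, or dasatinib 16x C, or parental A or B (adjusted p up to 0.0843). Pola1 of DNA polymerase alpha (-0.25 ± 0.07) lost its call without dasatinib 1x A or C, or parental A or B (adjusted p up to 0.106). Pola1 was also not called from the parental start (-0.16, adjusted p = 0.0834).

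The other pair of S phase genes were vehicle-led. Pole2, a subunit of DNA polymerase epsilon, measured 87.2 CPM in DMSO 1x and 200.3 CPM in DMSO 16x. The dasatinib libraries held 43.9, 45.6 and 45.2 CPM at 1x and 51.96, 59.8 and 56.7 CPM at 16x (step difference -0.88 ± 0.09, adjusted p = 0.000245); it rose in both steps, and more in vehicle. It neighbours Klhdc2, a shared rise described below. Rfc5, a clamp loader subunit on chromosome 5, was higher (0.26 ± 0.07), and its call was lost without dasatinib 1x A or C, or parental A or B (adjusted p up to 0.101). Of 24 tested genes of G2 and mitosis, 11 fell and 1 rose in the dasatinib step, and the step difference was called for 0 (1 higher and 8 lower at an unadjusted p under 0.05; DESeq2 called 0 higher and 2 lower, limma-voom 0; 0 higher and 0 to 6 lower when 1 library was left out). E2f2, an S phase activator, fell under drug (step difference -0.38 ± 0.07, adjusted p = 0.00587). Cdkn2c, a CDK inhibitor, measured 116 CPM in DMSO 1x and 81.3 CPM in DMSO 16x. Cdkn2c under drug measured 141, 145 and 143 CPM at 1x and 122, 134 and 130.2 CPM at 16x (step difference 0.37 ± 0.08, adjusted p = 0.0129), and DMSO 16x was its lowest library. Cdkn2a, at the INK4a/ARF locus, had 0.61 ± 0.15, with the call lost without dasatinib 1x A, B or C, or parental A or B (adjusted p up to 0.0805).

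Most called genes were vehicle-led, and most of these fell. Fut4, a fucosyltransferase that makes the CD15 epitope, measured 7.49 CPM in DMSO 1x and 0.348 CPM in DMSO 16x. With dasatinib the levels were 18.4, 18.1 and 17.5 CPM at 1x and 25.1, 24.6 and 25.6 CPM at 16x, while parental A and B stood at 15.8 and 13.6 CPM (step difference 4.89 ± 0.22, adjusted p = 5.99e-08). It had 274 counts in DMSO 1x and 13 in DMSO 16x, a ratio of 21.5 (95% counting interval 12.4 to 40.9). Zfp518a, a zinc finger gene, measured 20.9 CPM in DMSO 1x and 1.42 CPM in DMSO 16x. Under drug it stood at 39.3, 34.8 and 38.8 CPM at 1x and 37.1, 37.4 and 37.1 CPM at 16x (step difference 3.86 ± 0.15, adjusted p = 2.27e-08). Cask, a membrane-associated scaffold kinase on the X chromosome, measured 18.7 CPM in DMSO 1x and 1.04 CPM in DMSO 16x. The dasatinib libraries held 28.6, 28.7 and 28.5 CPM at 1x and 32.3, 30.8 and 23.9 CPM at 16x (step difference 4.18 ± 0.28, adjusted p = 5.19e-05). In these 3 genes DMSO 16x lay far below the other libraries, and DMSO 1x lay between DMSO 16x and the parental libraries.

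Myo10, an unconventional myosin of filopodia, fell in vehicle from 2.27 to 0.134 CPM, with 5 counts at 16x, and stood at 5.1, 6.57 and 6.26 and 5.21, 9.67 and 6.13 CPM under drug (step difference 4.28 ± 0.71, adjusted p = 0.00744). With limma-voom its call was lost (adjusted p = 0.177). Gnai1, a G protein alpha subunit on chromosome 5, fell in vehicle from 6.56 to 0.321 CPM. In the 6 dasatinib libraries Gnai1 had 0 to 4 counts, so its dasatinib step carries no information on change, and the call of its step difference was lost without dasatinib 1x A or C, or dasatinib 16x C, or parental A or B (adjusted p up to 0.503).

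The order seen in these genes, with DMSO 1x between, was common in the class. Of the 466 genes that fell in a vehicle-led way, DMSO 1x lay between the parental mean and DMSO 16x in 447 (95.9%), against 57.8% of all tested genes. All 6 dasatinib libraries lay above DMSO 16x for 464 of them (29.6% of all tested genes), and both parental libraries for 465 (45.3%). Since the class was defined by a fall to DMSO 16x, these counts describe it and were not tested.

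Among the 59 vehicle-led rises, Smoc1, a secreted calcium-binding protein, measured 21.8 CPM in DMSO 1x and 61.5 CPM in DMSO 16x. Smoc1 under drug measured 0.506, 0.226 and 0.404 CPM at 1x and 0.506, 0.392 and 0.334 CPM at 16x, while parental A and B stood at 3.88 and 4.14 CPM. The vehicle step was called (1.49 ± 0.21), and the step difference (-1.34 ± 0.34) lost its call without dasatinib 1x A or C, or dasatinib 16x C, or parental A or B (adjusted p up to 0.13). Cacna1f, a calcium channel gene, rose from 2.87 to 9.99 CPM; its step difference (-1.97 ± 0.52) lost its call without dasatinib 1x A, B or C, or parental A or B (adjusted p up to 0.0815). Ampd3, AMP deaminase 3, rose from 6.26 to 16.01 CPM; its step difference (-1.55 ± 0.41) lost its call without dasatinib 1x A, B or C, or parental A or B (adjusted p up to 0.101). Each of these 3 genes stood below 1.5 CPM in all dasatinib libraries, below both DMSO libraries. Slc35e4 (-1.48 ± 0.32) lost its call without dasatinib 1x A, or parental B (adjusted p up to 0.0507), and Arhgap5, a GTPase-activating protein (-1.05 ± 0.24), without dasatinib 1x A or B, or parental A or B (adjusted p up to 0.0611). From the parental start the step differences of Smoc1, Cacna1f, Ampd3, Slc35e4 and Arhgap5 were -3.78, -4.14, -3.01, -2.43 and -2.25, all called.

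The vehicle-led falls were concentrated on 2 chromosomes. On chromosomes 5 and 18 the median vehicle step was -0.28 and -0.34, and 85.4% and 86.1% of their tested genes had a vehicle step below 0, while the median dasatinib step was 0.01 and -0.03. The step difference was higher for 249 genes on chromosome 5 and 108 on chromosome 18, and lower for 3 and 1; 32.8% and 34.5% of their tested genes were called, against 6.36% of all. Together these chromosomes held 8.34% of tested genes, 54.3% of the 658 higher calls and 302 of the 466 vehicle-led falls. Along both chromosomes, in each of 10 bins in gene order, the median vehicle step was below -0.24. Relative to the parental libraries, medians were -0.17 and -0.18 in DMSO 1x and -0.47 and -0.52 in DMSO 16x, so the deficit was present at 1x and larger at 16x. DNA copy number was not measured.

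**Figure D3:**
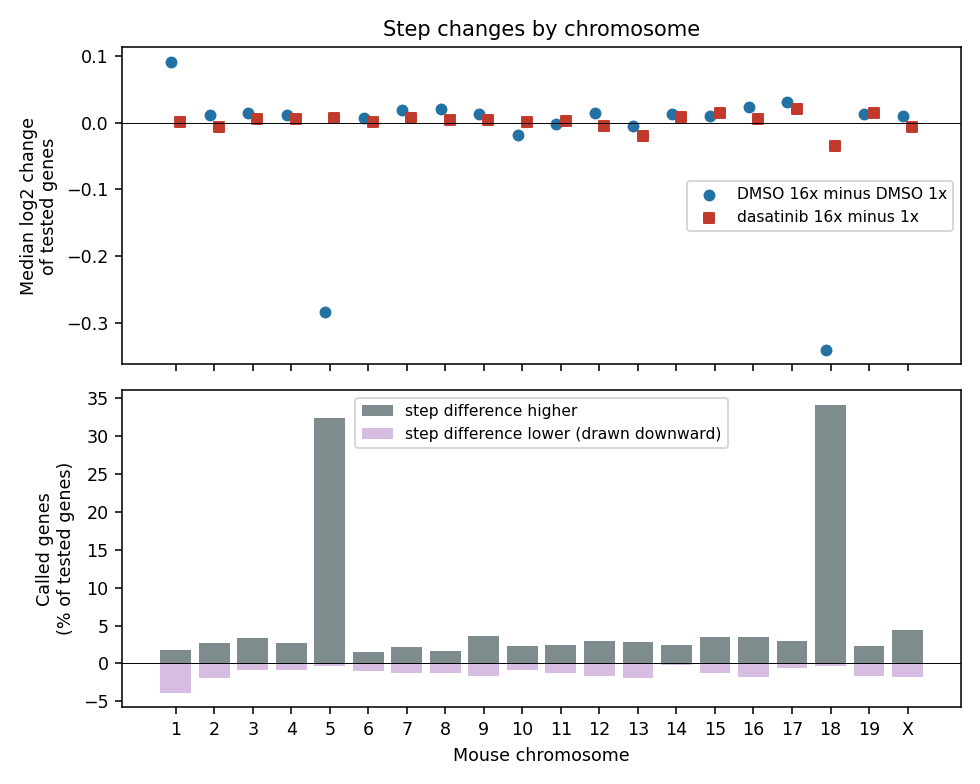
Top, median log2 change of tested genes on each mouse chromosome for the vehicle step (circles) and the dasatinib step (squares); bottom, percentage of tested genes whose step difference was called higher (upward) or lower (downward). Chromosomes 5 and 18 lie at -0.28 and -0.34 in the vehicle step alone and hold the tallest bars, at 32.8% and 34.5% called in both directions together.

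Without the genes placed on chromosomes 5 and 18, 465 of the remaining genes (3.90%, with 1118 tested genes of no matched position kept among them) were called, 301 higher and 164 lower, so 64.7% of calls were higher against 79.7% over all genes. The vehicle-led class held 222 of the remaining genes, 164 falling and 58 rising, and the drug-led class held 68 higher and 72 lower. On chromosome 1 the median vehicle step was 0.09, and 27 genes were lower against 12 higher. Chromosome 18 also held Cd74 and Pmaip1, 2 genes whose dasatinib steps moved. For Cd74 the vehicle step was 0.34 ± 0.16, against the fall of the chromosome as a whole.

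The opposed class held 14 genes. P2ry13, a purinergic receptor for ADP, measured 8.1, 7.85 and 6.49 CPM across dasatinib 1x A, B and C, then 19.1, 14.5 and 12.7 CPM in dasatinib 16x. P2ry13 in vehicle measured 8.78 CPM in DMSO 1x and 2.03 CPM in DMSO 16x (step difference 3.15 ± 0.33, adjusted p = 0.000421). Cacna1i, a T-type calcium channel gene, measured 2.63, 2.77 and 2.78 CPM across dasatinib 1x A, B and C, then 4.31, 6.56 and 6.16 CPM in dasatinib 16x. Cacna1i in vehicle measured 1.42 CPM in DMSO 1x and 0.214 CPM in DMSO 16x (step difference 3.77 ± 0.46, adjusted p = 0.000627). Dse, dermatan sulfate epimerase, measured 4.46, 4.03 and 4.34 CPM across dasatinib 1x A, B and C, then 6.9, 5.34 and 7.14 CPM in dasatinib 16x. Dse in vehicle measured 1.37 CPM in DMSO 1x and 0.295 CPM in DMSO 16x (step difference 2.80 ± 0.39, adjusted p = 0.0012). All 3 rose under drug and fell in vehicle, with DMSO 16x the lowest of the 10 libraries.

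Actr3b, an ARP3 paralog on chromosome 5, measured 36.9, 42.3 and 36.3 CPM across dasatinib 1x A, B and C, then 53.7, 68.9 and 60.8 CPM in dasatinib 16x. Actr3b in vehicle measured 32.7 CPM in DMSO 1x and 16.9 CPM in DMSO 16x (step difference 1.61 ± 0.20, adjusted p = 0.00235). St3gal2, a sialyltransferase, measured 10.2, 9.64 and 10.5 CPM across dasatinib 1x A, B and C, then 16.7, 12.2 and 16.8 CPM in dasatinib 16x. St3gal2 in vehicle measured 10.1 CPM in DMSO 1x and 5.19 CPM in DMSO 16x (step difference 1.55 ± 0.24, adjusted p = 0.00275). Grb7, an SH2 adaptor of receptor tyrosine kinases, moved the other way. It measured 10.6, 12.2 and 9.29 CPM across dasatinib 1x A, B and C, then 6.75, 5.46 and 4.54 CPM in dasatinib 16x. Grb7 in vehicle measured 15.9 CPM in DMSO 1x and 43.5 CPM in DMSO 16x (step difference -2.39 ± 0.27, adjusted p = 0.000818). Both DMSO libraries lay above the parental libraries (6.85 and 7.25 CPM) and above all dasatinib libraries. These 6 genes kept their calls whichever library of a replicated group was left out, at adjusted p of up to 0.0101.

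The shared genes were called the same way in both steps, with a step difference that was not called. Rragd, a RAG GTPase of amino acid sensing by mTORC1, measured 9.21 CPM in DMSO 1x and 1.82 CPM in DMSO 16x. With dasatinib the levels were 11.7, 10.5 and 11.4 CPM at 1x and 2.04, 2.42 and 1.89 CPM at 16x. The steps were -2.40 ± 0.12 under drug and -2.34 ± 0.21 in vehicle, and the step difference of -0.07 had a 95% interval of -0.59 to 0.46. Nkd2, a WNT antagonist, had steps of -1.85 and -2.20 (interval of the difference -0.41 to 1.11). Il7r measured 167 CPM in DMSO 1x and 78.3 CPM in DMSO 16x. Under drug it stood at 237, 214 and 213 CPM at 1x and 132, 134 and 117 CPM at 16x, with steps of -0.79 and -1.09 (interval 0.04 to 0.57). The interval of Il7r lies above 0 although its adjusted p missed the threshold (0.19). Lef1, a WNT-pathway factor of early lymphoid cells, had -0.53 and -0.66 (interval -0.03 to 0.29), and Myb, of progenitor proliferation, -0.33 and -0.28 (interval -0.21 to 0.11). Dclk2 and Trp53inp1, a p53-induced gene, also fell in both steps. From the parental start the step difference was called for Il7r (0.69, adjusted p = 0.00151), Lef1 (0.37, adjusted p = 0.00187) and Dclk2 (1.12, adjusted p = 0.00217), and not for Rragd, Nkd2, Myb and Trp53inp1.

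Among shared rises, Gimap3, a GTPase of lymphocyte survival, measured 21.7 CPM in DMSO 1x and 46.9 CPM in DMSO 16x. The dasatinib libraries held 8.51, 8.38 and 10.1 CPM at 1x and 23.7, 29.7 and 19.8 CPM at 16x (interval of the difference -0.33 to 0.98). Eml2, a microtubule-binding protein, rose by 1.27 and 1.15 (interval -0.40 to 0.63). Klhdc2, a substrate receptor of an E3 ligase, measured 56.7 CPM in DMSO 1x and 168 CPM in DMSO 16x. Klhdc2 under drug measured 42.2, 43.9 and 37.98 CPM at 1x and 98.5, 110.0 and 68.03 CPM at 16x (interval -1.35 to 0.53). Pvrl1, which encodes nectin-1, and Dbndd2 also rose in both steps. Ccnd2, cyclin D2, rose by 0.39 and 0.46 (interval -0.22 to 0.09). From the parental start the step difference was called for Eml2 (-1.30, adjusted p = 0.00106), Klhdc2 (-1.37, adjusted p = 0.044), Pvrl1 (-1.54, adjusted p = 0.0109) and Ccnd2 (-0.48, adjusted p = 0.00021), and not for Gimap3 and Dbndd2. The shared class therefore describes the step from DMSO 1x, and a step difference that was not called does not show the steps to be equal.

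MHC molecules and the immunoproteasome serve antigen presentation. Of 15 tested genes of MHC class I and the immunoproteasome, 10 rose in the dasatinib step and 3 in the vehicle step, with 0 falling in either; the step difference was higher for 2 and lower for 0 (5 higher and 0 lower at an unadjusted p under 0.05; DESeq2 called 3 higher and 0 lower; 1 to 4 higher and 0 lower when 1 library was left out). H2-K1, a class I heavy chain, measured 147 CPM in DMSO 1x and 277 CPM in DMSO 16x. With dasatinib the levels were 50.99, 58.5 and 55.7 CPM at 1x and 115, 111 and 88.3 CPM at 16x, with steps of 0.93 and 0.91 (difference 0.01 ± 0.21, interval -0.49 to 0.52). H2-D1 had 0.86 and 0.80, and Nlrc5, the transactivator of class I genes, 0.92 and 0.71. The levels of both heavy chains were higher in each DMSO library than in the dasatinib library of the same step. Against the parental libraries as the start, the step differences of H2-K1 and H2-D1 were -1.12 and -0.79, both called. The heavy chain genes are close paralogs, so reads may be divided unevenly between them.

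The 2 genes with a higher step difference encode parts of peptide supply. Psmb8, an immunoproteasome subunit, measured 206, 214 and 201 CPM across dasatinib 1x A, B and C, then 259, 245 and 259 CPM in dasatinib 16x. Psmb8 in vehicle measured 184 CPM in DMSO 1x and 162 CPM in DMSO 16x (step difference 0.48 ± 0.07, adjusted p = 0.00152), and its dasatinib 16x libraries were above all others. Tap2, of the peptide transporter, had 0.40 ± 0.10 and lost its call without dasatinib 1x A, B or C, or parental A or B (adjusted p up to 0.0715). Of 9 tested class II genes, 3 rose under drug, and the step difference was higher for 2 (list median of the step difference 0.74, but 0.01 with the parental libraries as the start). Cd74, the invariant chain, measured 22.1, 24.7 and 20.9 CPM across dasatinib 1x A, B and C, then 72.8, 61.5 and 57.5 CPM in dasatinib 16x. Cd74 in vehicle measured 28.2 CPM in DMSO 1x and 35.7 CPM in DMSO 16x (step difference 1.16 ± 0.18, adjusted p = 0.0064), and its dasatinib 16x libraries were above all others. From the parental start it had 0.61 and was called. H2-DMb2, a peptide editor, stood at 1.39, 1.11 and 1.03 and then 4.9, 3.23 and 3.84 CPM, and its step difference (1.68 ± 0.41) lost its call without dasatinib 1x B or C, or parental A or B (adjusted p up to 0.0689), and from the parental start (0.45, adjusted p = 0.476). Lta, lymphotoxin alpha, on the same chromosome, measured 132, 140.4 and 133 CPM across dasatinib 1x A, B and C, then 446, 352 and 369 CPM in dasatinib 16x. Lta in vehicle measured 191 CPM in DMSO 1x and 275 CPM in DMSO 16x; its step difference (1.00 ± 0.18) lost its call without dasatinib 1x A, B or C (adjusted p up to 0.065), and from the parental start (0.49, adjusted p = 0.0931).

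Interferon-induced genes gave 8 higher and 0 lower step differences among 43 tested (9 higher and 3 lower at an unadjusted p under 0.05; DESeq2 called 4 higher and 0 lower; 5 to 8 higher and 0 to 2 lower when 1 library was left out). In the dasatinib step 10 rose and 1 fell, and in the vehicle step 2 rose and 4 fell. The promoter windows of 3 called members are shown because they hold the core letters of the interferon-stimulated response element, the motif bound by STAT and IRF factors. The windows are the 250 bases before the annotated start in RefSeq on GRCm38.p6, 5′ to 3′ on the plus strand, with matches to GAAA, any 2 bases and GAAA, or to its complement TTTC, any 2 bases and TTTC, in capitals. They are Gbp2 at chr3:142620413-142620662, Ifit3 at chr19:34583279-34583528 and Igtp at chr11:58199306-58199555.
Gbp2: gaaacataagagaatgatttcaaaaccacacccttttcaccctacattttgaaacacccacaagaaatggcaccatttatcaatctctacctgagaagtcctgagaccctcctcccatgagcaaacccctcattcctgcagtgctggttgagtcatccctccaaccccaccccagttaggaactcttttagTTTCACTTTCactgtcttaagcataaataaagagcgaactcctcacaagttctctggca
Ifit3: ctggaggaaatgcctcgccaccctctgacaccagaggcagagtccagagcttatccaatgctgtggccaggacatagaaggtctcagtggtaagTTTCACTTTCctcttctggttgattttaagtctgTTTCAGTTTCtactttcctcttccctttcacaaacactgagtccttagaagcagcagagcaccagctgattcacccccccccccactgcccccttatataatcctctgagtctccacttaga
Igtp: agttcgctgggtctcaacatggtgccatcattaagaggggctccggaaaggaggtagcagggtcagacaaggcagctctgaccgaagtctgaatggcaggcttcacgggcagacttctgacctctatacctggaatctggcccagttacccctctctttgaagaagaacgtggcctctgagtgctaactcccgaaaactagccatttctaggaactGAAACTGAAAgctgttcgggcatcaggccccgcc
Such a match occurred in 2.98% of 32851 windows of all genes, and in at least 1 window of 3.46% of 27025 genes. Of the 8 called genes, 5 had a window (Gbp2, Gbp3, Ifit1, Ifit3 and Igtp), and all 5 held a match in at least 1 window, as did 9 of 26 tested list genes that were not called higher. A match describes the letters and is not evidence of binding.

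Gbp2, a guanylate-binding protein, measured 23.6 CPM in DMSO 1x and 9.91 CPM in DMSO 16x. Under drug it stood at 29.4, 29.3 and 26.6 CPM at 1x and 32.6, 28.8 and 33.01 CPM at 16x (step difference 1.40 ± 0.14, adjusted p = 0.000107). Gbp3 beside it measured 92.4 CPM in DMSO 1x and 52.6 CPM in DMSO 16x. The dasatinib libraries held 112, 109.9 and 106 CPM at 1x and 111, 111 and 126 CPM at 16x (step difference 0.90 ± 0.10, adjusted p = 0.000373), and Gbp6 on chromosome 5 had 0.54 ± 0.07. In Gbp2, Gbp3 and Gbp6 the vehicle step fell, the dasatinib step was not called, and DMSO 16x was the lowest library. The guanylate-binding proteins have close paralogs, so their counts are uncertain. Igtp, an immunity-related GTPase, rose under drug from 11.7, 10.8 and 11.2 to 14.3, 13.4 and 14.5 CPM. Its step difference (0.75 ± 0.17, adjusted p = 0.0232) takes in the vehicle step as well as this rise. The call of Igtp was lost without dasatinib 1x C (adjusted p up to 0.0564).

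The other 4 called interferon-induced genes were near the limit of detection. Ifit1 had 1, 1 and 5 counts in dasatinib 1x, 20, 13 and 13 in dasatinib 16x, 5 in DMSO 1x and 0 in DMSO 16x, and lost its call without dasatinib 1x A or B, or parental A or B (adjusted p up to 0.0737). Ifit3 had 10, 18 and 21 counts, then 49, 37 and 37 under drug, against 13 and 4 in DMSO, and lost its call without dasatinib 1x A, B or C, or dasatinib 16x A or C, or parental A or B (adjusted p up to 0.0779). Zbp1, a sensor of Z-form nucleic acid, had 9, 29 and 28 counts, then 64, 59 and 59 under drug, against 22 and 5 in DMSO (adjusted p = 0.0218). Iigp1, on chromosome 18, rose under drug from 0.601, 1.01 and 0.883 to 1.54, 2.45 and 1.96 CPM. In vehicle it had 35 counts in DMSO 1x and 18 in DMSO 16x. Its step difference (2.22 ± 0.56) lost its call without dasatinib 1x A or C, or parental A or B (adjusted p up to 0.0697). In these 4 the dasatinib step rose and the vehicle step was not called, although each had fewer counts in DMSO 16x than in DMSO 1x. The shared direction of the 8 genes therefore combined called falls in vehicle with called rises under drug, and a step difference can hold parts of both.

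**Figure D4:**
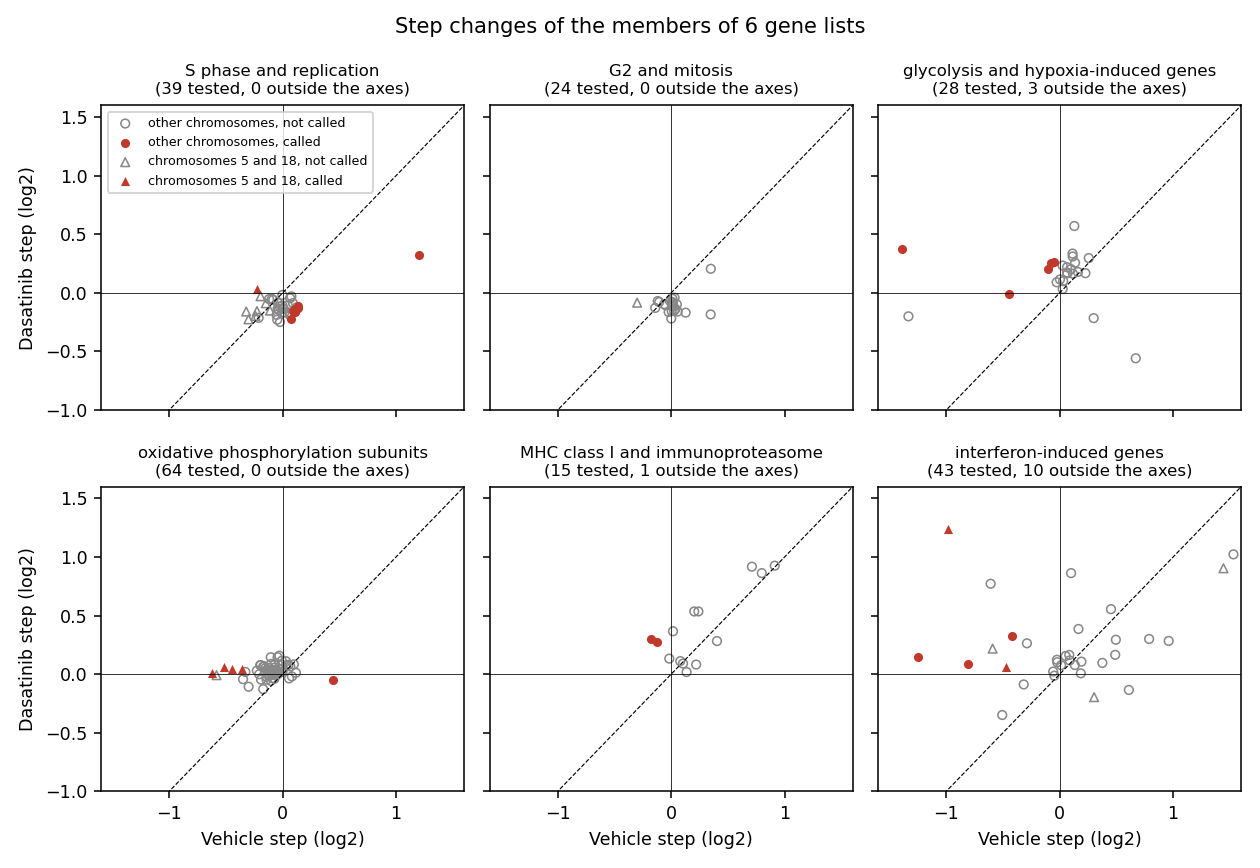
Dasatinib step (vertical, log2) against vehicle step (horizontal, log2) of the tested members of 6 gene lists, with 1 point per gene, triangles for genes on chromosomes 5 and 18, filled red symbols for called step differences and a dashed line at equal steps; 3 glycolysis, 1 MHC class I and 10 interferon genes lie outside the axes. The S phase members sit mostly below 0 on the vertical axis, the glycolysis members above it, and the called oxidative phosphorylation genes to the left with 1 exception.

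Glycolysis and hypoxia-induced genes rose under drug in 17 of 28 tested members, with 0 falling. In the vehicle step 3 rose and 4 fell, and 19 of the 28 had a vehicle step above 0 (median 0.06, against 0.19 under drug). The step difference was higher for 5 and lower for 0 (11 higher and 2 lower at an unadjusted p under 0.05; DESeq2 called 6 higher and 0 lower; 3 to 7 higher and 0 to 1 lower when 1 library was left out), and its median was 0.14. Hk1, hexokinase 1, measured 62.8, 64.9 and 59.6 CPM across dasatinib 1x A, B and C, then 91.5, 81.1 and 70.5 CPM in dasatinib 16x. Hk1 in vehicle measured 39.6 CPM in DMSO 1x and 15.1 CPM in DMSO 16x, while parental A and B stood at 41.8 and 38.1 CPM (step difference 1.77 ± 0.20, adjusted p = 0.00198). It rose under drug and fell in vehicle, with DMSO 16x the lowest library. Aldoa, aldolase A, measured 1227, 1284 and 1233 CPM across dasatinib 1x A, B and C, then 1433, 1452 and 1426 CPM in dasatinib 16x. Aldoa in vehicle measured 1247 CPM in DMSO 1x and 1165 CPM in DMSO 16x (step difference 0.30 ± 0.06, adjusted p = 0.00833). Bnip3, a mitophagy receptor induced by hypoxia, fell in vehicle from 269.7 to 198 CPM (step difference 0.44 ± 0.09, adjusted p = 0.0107).

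The sign of this list depended on the vehicle start. With the parental libraries in place of DMSO 1x, 2 members were higher and 15 lower, and the median was -0.28. Aldoa, Slc2a1, P4ha1 and Bnip3 then had step differences of -0.069, -0.31, -0.075 and -0.33, against 0.30, 0.31, 0.33 and 0.44 from DMSO 1x, while Hk1 kept 1.78. Aldoa stood at 977 and 951 CPM in the parental libraries, below both DMSO libraries. The call of Slc2a1, the glucose transporter GLUT1, was also lost without dasatinib 1x A or C, or parental A or B (adjusted p up to 0.0998), and that of P4ha1, a collagen prolyl hydroxylase, without dasatinib 1x C (adjusted p up to 0.0502). Hk2 and Vegfa rose in both steps, by 0.17 and 0.30 under drug and 0.23 and 0.26 in vehicle.

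Of 64 tested subunits of oxidative phosphorylation, 4 were higher and 1 was lower (2 to 8 higher and 0 to 1 lower when 1 library was left out). These counts are near the shares of all tested genes, 5.06% higher and 1.29% lower. At an unadjusted p under 0.05, 16 were higher and 1 was lower, and DESeq2 called 5 higher and 0 lower. The step difference was above 0 in 58 of the 64 members, against 6763 of all 12993 tested genes (list median 0.12, against 0.01). All 4 genes called higher lie on chromosomes 5 and 18: Atp5a1, Atp5j2, Cox6a1 and Ndufa2. The call was lost for Atp5j2 without dasatinib 1x C, or dasatinib 16x A, B or C, or parental A or B (adjusted p up to 0.0765) and for Ndufa2 without dasatinib 1x C (adjusted p up to 0.0619). Atp5a1, the ATP synthase alpha subunit, measured 1856 CPM in DMSO 1x and 1447 CPM in DMSO 16x. Atp5a1 under drug measured 2112, 2145 and 2108 CPM at 1x and 2178, 2158 and 2209 CPM at 16x (step difference 0.40 ± 0.05, adjusted p = 0.00104). Among the 59 members not placed on those chromosomes 0 were called higher and 1, Ndufs6, was called lower (-0.50 ± 0.12). That call was lost without dasatinib 1x B or C, or parental A or B (adjusted p up to 0.0729). The median step difference of the 59 was 0.10, against -0.005 for all tested genes not placed there. Of 67 cytosolic ribosomal proteins, 2 were higher and 0 lower (7 and 0 at an unadjusted p under 0.05; DESeq2 called 7 and 0; 0 to 8 higher and 0 lower when 1 library was left out). Both, Rpl21 and Rpl5, lie on chromosome 5, with 0.28 ± 0.07 and 0.24 ± 0.06; the first lost its call without dasatinib 1x A or C, or parental A or B (adjusted p up to 0.0641) and the second without dasatinib 1x A or C, or dasatinib 16x C, or parental A or B (adjusted p up to 0.0993). Mbd2, a methyl-CpG binding protein on chromosome 18, and Tec, a non-receptor tyrosine kinase on chromosome 5, also fell in vehicle, with step differences of 0.41 ± 0.08 and 0.71 ± 0.10.

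Iron handling gave a pair of opposite calls among 20 tested genes. Ftl1, the ferritin light chain that stores iron, measured 967, 988 and 933 CPM across dasatinib 1x A, B and C, then 1190.0, 1072 and 1161 CPM in dasatinib 16x. Ftl1 in vehicle measured 597 CPM in DMSO 1x and 439 CPM in DMSO 16x (step difference 0.69 ± 0.08, adjusted p = 0.000421), rising under drug and falling in vehicle. Tfrc, the transferrin receptor that takes iron up, measured 829, 786 and 817 CPM across dasatinib 1x A, B and C, then 674, 719 and 724 CPM in dasatinib 16x. Tfrc in vehicle measured 939.7 CPM in DMSO 1x and 1023 CPM in DMSO 16x (step difference -0.32 ± 0.07, adjusted p = 0.0154), falling under drug alone by call. Abcc4, an exporter of nucleotides and drugs, was the 1 called gene of 18 tested ABC transporters and measured 62.5, 61.3 and 63.4 CPM across dasatinib 1x A, B and C, then 69.2, 68.8 and 71.1 CPM in dasatinib 16x. Abcc4 in vehicle measured 55.99 CPM in DMSO 1x and 44.7 CPM in DMSO 16x (step difference 0.48 ± 0.07, adjusted p = 0.00198). Over all tested genes 6.36% were called. In the list of ABL and SRC family kinases, which also holds Tec of the related TEC family, 2 of 15 tested genes were higher and 0 lower. At an unadjusted p under 0.05 there were 3 and 1, and DESeq2 called 1 and 0. With 1 library left out, 1 to 3 were higher and 0 to 1 lower. Besides Tec the called gene was Fgr, which had 9 counts over dasatinib 1x and 132 over dasatinib 16x, a ratio of 12.7 (95% counting interval 6.49 to 28.4). In vehicle Fgr had 26 counts in DMSO 1x and 55 in DMSO 16x (0.711 and 1.47 CPM). DMSO 1x lay above dasatinib 1x (up to 0.127 CPM), and DMSO 16x above every dasatinib 16x library. The call of its step difference was lost without dasatinib 1x A, B or C, or dasatinib 16x C, or parental A or B (adjusted p up to 0.0888), and from the parental start it had -0.25. Abl1 itself measured 198, 201 and 196 CPM across dasatinib 1x A, B and C, then 179, 179 and 176 CPM in dasatinib 16x. Abl1 in vehicle measured 197 CPM in DMSO 1x and 177 CPM in DMSO 16x. Its step difference was 0.00 ± 0.06 with a 95% interval of -0.12 to 0.12, and its reads cannot be told apart from those of the fusion.

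Among markers of other cell types, 1 T cell gene, Cd2, and 1 myeloid gene, Ctss, were higher. Cd2, also found on B-lineage cells, measured 145, 153 and 159 CPM across dasatinib 1x A, B and C, then 230.2, 228 and 243 CPM in dasatinib 16x. Cd2 in vehicle measured 135 CPM in DMSO 1x and 162 CPM in DMSO 16x (step difference 0.36 ± 0.08, adjusted p = 0.0179). From the parental start Cd2 had 0.029 and was not called (adjusted p = 0.832). Ctss, the lysosomal cathepsin S, measured 42.2, 43.1 and 41.6 CPM across dasatinib 1x A, B and C, then 68.4, 61.2 and 61.1 CPM in dasatinib 16x. Ctss in vehicle measured 49.4 CPM in DMSO 1x and 53.1 CPM in DMSO 16x (step difference 0.48 ± 0.10, adjusted p = 0.0127). The summed level of the 5 tested T cell markers was 180.1 to 190.4 CPM in dasatinib 1x, 256 to 273 CPM in dasatinib 16x, 154 CPM in DMSO 1x, 179.8 CPM in DMSO 16x and 127 to 133 CPM in the parental libraries. That of the 5 tested myeloid markers was 50.5 to 52.8 CPM in dasatinib 1x, 71.5 to 87.1 CPM in dasatinib 16x, 57.4 CPM in DMSO 1x, 61.3 CPM in DMSO 16x and 51.1 to 53.9 CPM in the parental libraries. Cd4, Cd8b1, Elane, Cebpa, S100a8 and S100a9 had 0 counts in all libraries, and Cd2 and Ctss made up most of each sum.

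Several lists gave few calls. Zfp36, an mRNA-decay factor, was the 1 lower gene of 21 heat shock and immediate early genes and lost its call without dasatinib 1x A or C, or parental A or B (adjusted p up to 0.0701). Cd44, an adhesion receptor, was the 1 higher gene of 23 in adhesion and lost its call without dasatinib 1x A, B or C, or dasatinib 16x C, or parental A or B (adjusted p up to 0.0954). Hmgb2 was the 1 lower gene of 12 in V(D)J recombination and lost its call without dasatinib 1x C, or parental A or B (adjusted p up to 0.0666). Dnmt1, the maintenance methyltransferase, was lower (-0.21 ± 0.06), with its call lost without dasatinib 1x A or C, or dasatinib 16x C, or parental A or B (adjusted p up to 0.112). The step difference was called for 0 genes in each of the lists of ERK output (18 tested), MYC-induced ribosome biogenesis (21), amino acid stress (33) and replication-dependent histones (43). At an unadjusted p under 0.05 these held 1 higher and 1 lower, 1 and 4, 4 and 2, and 1 and 0 genes. Of all 12993 tested genes, 2369 had such a p. DESeq2 called 2 lower genes in ribosome biogenesis, 1 higher gene in amino acid stress and 0 in the other pair of lists. The summed histone level was 168.6 CPM in dasatinib 1x B and 45.2 to 61.0 CPM in the other 9 libraries. The 6 tested Hox genes summed to 0 to 0.0633 CPM in the dasatinib libraries, 24.7 and 68.3 CPM in DMSO 1x and 16x, and 2.97 to 3.07 CPM in the parental libraries. They passed the filter through the drug-free libraries only, so their dasatinib step carries no information, while 2 of them rose in the vehicle step.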

How the data were processed

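RNA sequencing of 10 libraries was analysed from gene-level read counts deposited by the authors in 1 table. The submitters' processing notes name CASAVA 1.7.0, Trimmomatic 0.33, TopHat2 2.0.12, BWA 0.7.10, SAMtools, HTSeq 0.6.1 and DESeq, with build mm9. The order of the tools and the strand setting of the counting are not given in the sources used here. Reads of overlapping, antisense or closely similar genes therefore cannot be separated. Deposited per-sample values other than counts were not used here.

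Genes were kept by filterByExpr of edgeR 4.0.16 in R 4.3.3 (minimum count 10), which left 12993 tested genes of the 18621 with a count. The robust quasi-likelihood test was fitted to all 10 libraries in 5 groups with TMM scaling (5 residual degrees of freedom), and p-values were adjusted by Benjamini and Hochberg over all tested genes. CPM used TMM-effective library sizes. Total counts were 29049760 to 45813092 per library; counting intervals are exact at 95% and cover counting error only.

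Named genes were those without a predicted-gene name that reached a mean of 5 CPM in 1 of the 4 step groups and whose 9 dasatinib steps lay on one side of the vehicle step. The rule took the 8 highest and 8 lowest drug-led genes, the 5 highest and 5 lowest vehicle-led and opposed genes, and the 5 highest and 5 lowest shared genes (by the mean of the 2 steps, without the condition on the 9). It added the 2 called members of each of 36 lists with the smallest p, without these conditions, and Abl1. A gene that the rule names is not reported here. The comparison, the lists and the named members were chosen with earlier results of these data known. A gene that qualified for more than 1 class (81 genes) was put in the first of drug-led, vehicle-led, opposed and same way. Chromosomes and promoter windows came from RefSeq on GRCm38.p6; names matched 11875 tested genes (91.4%), while the counts were made on mm9.

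Alternatives were RLE scaling, no filter, DESeq2 1.42.0, voom of limma 3.58.1, a block by replicate letter, the 8 libraries alone, a test against 2-fold, the spread of a drug-free class (likelihood ratio test), a fit without robust estimation, the parental libraries as the start of the vehicle step, each replicate left out, and calls without genes placed on chromosomes 5 and 18. Counts of classes without those chromosomes, and of the lists under the last alternatives, were added after seeing the data.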

Additional observations from a re-analysis of the deposited data

Results flagged for a closer look

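The step difference tests whether the same contrast, 16x minus 1x, differs between the dasatinib and the vehicle lines, and 826 genes passed it. These calls come from the test of the difference itself. With 1 DMSO library per step, that test does not measure the variation between DMSO lines, so the calls hold for these libraries. The 6 that were named because both steps were called in opposite directions had step differences of 3.77 for Cacna1i, 3.15 for P2ry13, 2.80 for Dse, 1.61 for Actr3b, 1.55 for St3gal2 and -2.39 for Grb7. With the drug-free class as the source of the spread (likelihood ratio test), the adjusted p of these 6 genes was 0.268 to 0.99996. That class counts their vehicle step as spread. All 6 calls rest on the spread of the dasatinib and parental replicates.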

How the results depend on the processing

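The count of called step differences was lowest with the drug-free class as the source of the spread. With that class it was 22 (50% higher), with 522 dasatinib steps, 0 vehicle steps, 12 drug-led, 0 vehicle-led and 0 shared genes. In that fit 345 of 12993 vehicle steps had an unadjusted p under 0.05 (likelihood ratio test), a share below 0.05. It counts the vehicle step as spread and also changes the test, so it is not a separate check of the vehicle step. Tested against 2-fold, 56 step differences were called, with 72 dasatinib and 46 vehicle steps, and 1 drug-led, 31 vehicle-led and 1 shared gene. With the parental libraries as the start of the vehicle step, 2541 were called (57.5% higher), with 318 drug-led, 1898 vehicle-led and 438 shared genes. From the 8 compared libraries alone, 543 were called and 98 genes were drug-led. Without genes placed on chromosomes 5 and 18, 465 were called and 222 were vehicle-led. Leaving out each replicate gave 541 to 1232 step differences, 955 to 2059 dasatinib steps, 83 to 384 drug-led and 156 to 360 shared genes. The count was 541 without dasatinib 1x C, 543 without parental A and 542 without parental B, against 826. The cause of these moves was not tested. RLE scaling gave 812, no filter 952, DESeq2 839, limma-voom 658 and the fit without robust estimation 766.

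The replicate block gave 712 called step differences, of which 655 were among the 826. Residuals of the same letter correlated at 0.05, 0.03 and 0.03, and each letter correlated best with its own. Pairs of different letters stood at -0.035 to 0.0024. All these values are small, and whether the letters mark paired lines was not tested. Of the 73 called genes that the rule names, 45 kept the call whichever library was left out, 66 by DESeq2, 63 by limma-voom, 57 with the replicate block, 66 from the parental start and 5 with the drug-free class. Of 28 further called genes described, 12 kept it whichever library was left out and 7 with the drug-free class. Those 7, Tfpi, Aes, Btbd3, Zfp11, Pld4, Acox3 and Ctsz, were chosen after their values were seen. Their number is therefore no measure of how often calls are kept.

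Among described genes called from DMSO 1x or from the parental start, the step difference changed sign from the parental start for 8. These were Eml2 (-1.30), Aldoa (-0.069), Fgr (-0.25), Slc2a1 (-0.31), P4ha1 (-0.075), Bnip3 (-0.33), H2-K1 (-1.12) and H2-D1 (-0.79). Some genes called from neither start changed sign as well, among them Gimap3 (0.32 to -0.83) and Rragd (-0.07 to 0.45). The cause of these changes was not tested. Of the 101 called genes described, 9 lost the call from there, and the value was over 1.5 times larger for 15 and smaller for 7 of the same sign. Genes under about 1 CPM, such as Ifit1 and Gnai1, are limited by depth.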
